A study of Mus musculus with 18 samples.

Results

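Regulatory and conventional CD4 T cells of mouse lymph nodes were compared on Affymetrix M430v2 microarrays: 3 arrays of Treg against 3 of Tconv, which are 6 of the 18 arrays of a study that also covered thymus and epididymal fat. The arrays were chosen by their titles alone. Lymph node Treg were sorted as CD4+ CD25+ and lymph node Tconv as CD4+ CD25-, and both gates removed cells with B220, CD11b or CD8a. Both groups came from C57BL/6 mice of 32 to 36 weeks with no transgene or treatment in the labels, and each array held RNA pooled from 3 to 6 mice, taken from cervical, inguinal and mesenteric nodes together. The arrays used beside them were thymus Treg and Tconv of BDC2.5/NOD mice, a strain that carries a T cell receptor transgene, of 4 to 6 weeks (3 to 6 mice per array), and fat Treg and Tconv of male C57BL/6 mice of 25 to 35 weeks (8 to 10 mice per array, sorted for TCRb as well). The sex of the lymph node mice is not stated in the labels. All RNA was amplified in 2 rounds before labelling, so the values of both groups carry that step. Errors and p-values speak of pools of mice, not of single animals.

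Regulatory T cells are the CD4 T cells that restrain the other cells of the immune system. The transcription factor Foxp3 sets their programme, most of them arise in the thymus, and they depend on interleukin-2, which other T cells make and which they bind through a receptor whose alpha chain is CD25. Conventional CD4 T cells of a lymph node are mainly resting naive cells that recirculate between blood and lymph, beside memory cells and the follicular helper cells that serve B cells. CD25 also appears on conventional cells for a time after they meet antigen, and some Foxp3-positive cells lack it, so the gate enriches both populations and purifies neither.

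Array checks came first. Il2ra, which encodes CD25, had an intensity of 1589.7, 1120.0 and 1315 on the Treg arrays, against 30.1, 34.8 and 38.4 on the Tconv arrays; as the sort marker it is a check and no finding. Cd4 averaged 459.8 in Treg and 783 in Tconv, a difference that missed the threshold (-0.74 ± 0.21 as a log2 difference ± SE, adjusted p = 0.0642 from limma) and passed it with the replicate block described below (adjusted p = 0.00916). Foxp3 stood at 901 ± 55.8 in Treg and 44.4 ± 8.8 in Tconv (SD, n = 3 arrays each). None of the 16 tested genes of T cell identity, the chains of CD3 among them, passed limma's test (2 at an unadjusted p under 0.05, none with the replicate block). Of markers of other cells, Itgam and Cd79a lay below the filter level of 65.9 in both groups, Cd8a averaged 109 in Treg and 115 in Tconv, and the B cell marker Ms4a1 averaged 411 in Treg and 359 in Tconv. The 20 B cell markers summed to 3018 to 3917 in Treg and 3166 to 3884 in Tconv, with Bank1 (405 against 159) and Cd79b (184 against 88.8) higher, Pou2af1 lower and Cd79a and Ebf1 below the filter in both. The 21 macrophage markers summed to 8519 to 9058 in Treg and 6952 to 7349 in Tconv, but without Ctss, a protease gene that T cells also express, to 1188 to 1448 and 1103 to 1388, and no member was called (1 fall with the block). The 21 markers of NK and cytotoxic cells summed to 1317 to 1469 in Treg and 1709 to 1834 in Tconv, with 1 member higher and 2 lower (4 lower with the block), Klrd1 the largest difference and Ncr1 below the filter in both. What part such cells have in the results was not tested.

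Over the 6 arrays the first principal component, with 45.4% of the variance, parted the 3 Treg arrays (21.6 to 23.5) from the 3 Tconv arrays (-24.8 to -19.3). The second, with 34.3%, followed the replicate number: it lay at -20.4 and -25.0 for Treg and Tconv of replicate 1, at -6.65 and 3.81 for replicate 2, and at 26.6 and 21.6 for replicate 3. Treg and Tconv of one number therefore shared a deviation from their group means, and counts of lists and families are given below also with the replicate number as a block where it moved them by more than 1.5 times.

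Of 12821 genes tested, 412 were higher and 142 lower in lymph node Treg at a Benjamini-Hochberg adjusted p under 0.05 from limma, the rule by which a gene is said here to rise or fall. That is 4.32% of the genes, 3.21% in the upward and 1.11% in the downward direction. Counts in lists and families below are to be read beside these shares, and no list or family was tested as a set. The lists and families were chosen with earlier results of these data known. With the replicate block 1028 genes passed (8.02%), which included 551 of the 554 with the same sign. At an unadjusted p under 0.05 there were 1444 genes. All 554 changed in the same direction in each of the 3 same-numbered pairs, and in 553 the 3 arrays of one group lay above all 3 of the other, a separation that 16.5% of all tested genes showed. Both counts follow in large part from a call made on the same arrays and are no separate support. Among the rises 250 were at least 2-fold, 67 at least 4-fold and 16 at least 8-fold; among the falls 79, 23 and 5 were. The median change of all tested genes was -0.02 (log2). In bulk RNA a transcript carried by fewer cells and one carried at a lower level by all of them cannot be told apart.

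**Figure D1:**
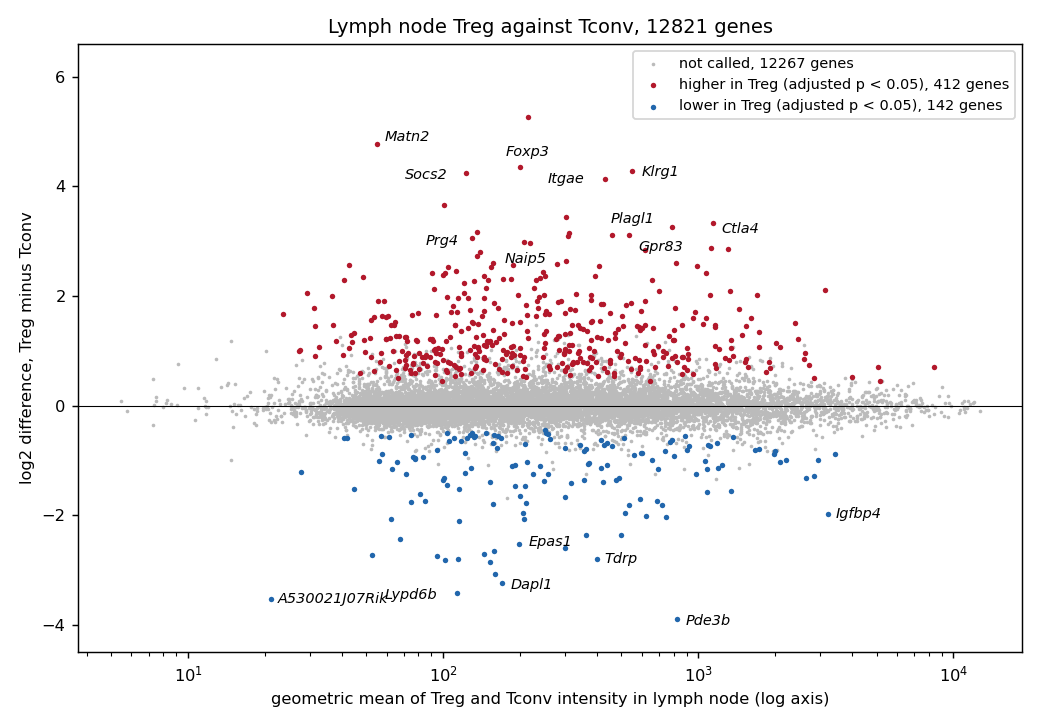
Each point is 1 of 12821 genes; the x axis is the geometric mean of its Treg and Tconv intensity (log axis) and the y axis its log2 difference, Treg minus Tconv. Rises (412, red) reach higher than falls (142, blue) reach low, and both run from dim to bright genes.

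Intensity sets how well a size is known. In 106 of the 412 rises the Tconv mean, and in 36 of the 142 falls the Treg mean, lay below 65.9, the median of all values and the filter level, where a transcript is hard to part from background. A fold against such a mean is approximate. Another 18 called genes lay below that level in both lymph node groups and had passed the filter through another tissue. Of 339 further probe sets that represent called genes above that level, 309 moved in the same direction as the gene's brightest probe set. In 233 of the 339 the change was at least 0.5 times that of the brightest one. Values of other probe sets are given below for only some genes, so a gene printed without them may have probe sets that disagree.

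**Figure D2:**
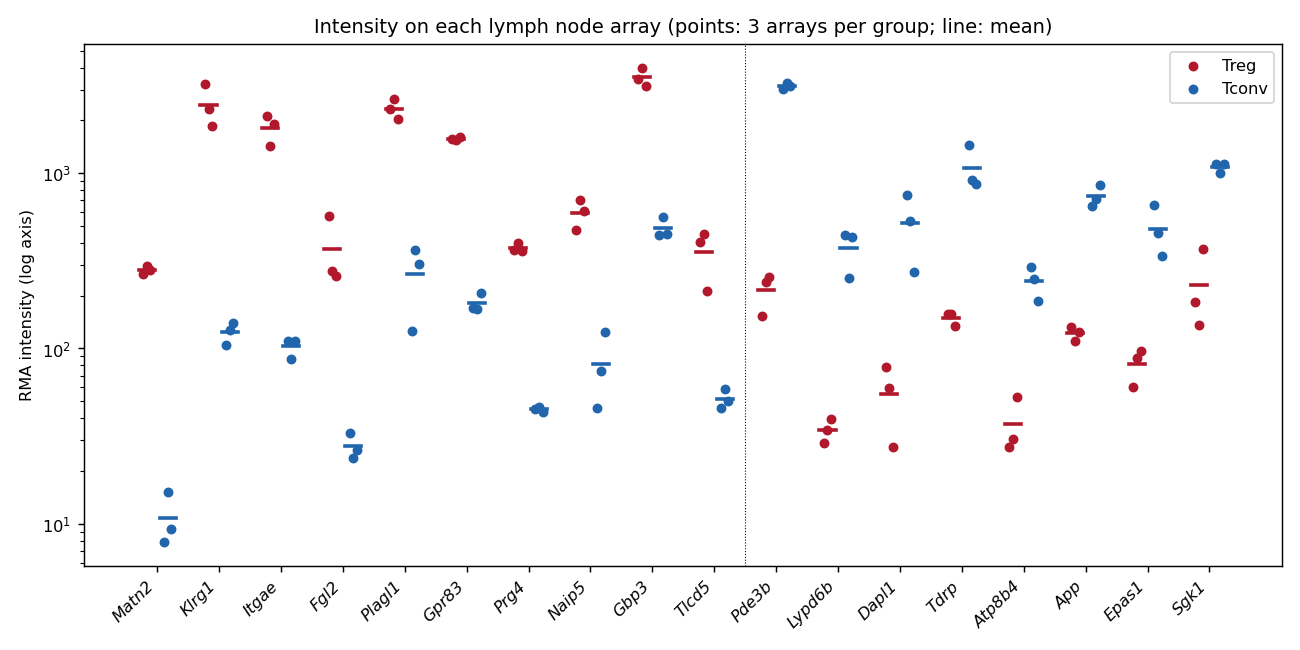
RMA intensity (log axis) on each of the 3 Treg (red) and 3 Tconv (blue) lymph node arrays for 10 genes that rose, left of the dotted line, and 8 that fell; the short line is the mean. The genes were taken from the largest differences among called genes without overlap. That the 3 points of one group lie clear of the 3 of the other follows from this choice.

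The surface of lymph node Treg carried several transcripts that stood far above Tconv. Klrg1, an inhibitory receptor that binds cadherins, had 3216, 2312 and 1866 on the Treg arrays, against 105, 127 and 139 on the Tconv arrays, a 19.5-fold difference. Itgae, the integrin chain CD103 that binds E-cadherin on epithelium, had 2123, 1427 and 1907, against 110.3, 87.6 and 110.0 in Tconv. Neither gene overlapped between the groups, and the lowest Treg array lay more than 10-fold above the highest Tconv array in both. Itgb8, whose protein pairs with the alpha v chain to release latent TGF-beta, had 853, 1041 and 878 in Treg, against 37.3, 148 and 112 in Tconv. Its partner Itgav rose by a smaller step (0.88 ± 0.15, log2 difference ± SE), with -0.20 to 0.49 on its other probe sets. Nrp1, a co-receptor for semaphorins, had 1970.5, 3091 and 3757 in Treg, against 201, 495 and 592 in Tconv, and both groups were lowest on replicate 1. Gpr83, a neuropeptide receptor, was even across arrays with 1575, 1542 and 1608 in Treg, against 170.2, 168 and 208 in Tconv. Gpr15, a receptor that guides T cells to the large intestine, had 616, 612 and 1001 in Treg, against 65.2, 139.7 and 168 in Tconv. Ccr6, the receptor for the chemokine CCL20, had 1903, 1306 and 1704 in Treg, against 177, 224 and 294 in Tconv. The groups stayed apart in all of these, as in 553 of the 554 called genes, and the largest differences were chosen among genes without overlap.

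Genes of secreted and suppressive proteins rose with them. Fgl2, a secreted fibrinogen-like protein with suppressive activity, had 567, 278 and 259.7 in Treg, against 33, 23.7 and 26.3 in Tconv. The first Treg array stood above the other 2, and the same array was the highest for Gzmb, the protease granzyme B, which had 676, 245 and 252 in Treg, against 53.9, 51.2 and 44.7 in Tconv. Ctla4, the receptor that removes CD80 and CD86 from antigen-presenting cells, had 3827, 2861 and 4079.9 in Treg, against 263, 339 and 482 in Tconv. Cd83 had 889, 746 and 1051 in Treg, against 76.3, 106 and 139 in Tconv. Il1r2, a decoy receptor for interleukin-1, had 268, 439 and 370.0 in Treg, against 34.8, 88.9 and 74.3 in Tconv. Entpd1 and Nt5e, the enzymes CD39 and CD73 that turn extracellular ATP into adenosine in sequence, rose by 2.35 ± 0.22 and 2.02 ± 0.29; the other 2 probe sets for Nt5e gave -0.15 and -0.054. In all, 14 of 26 tested suppressive and secreted effectors rose, with a median of 1.15, and 1 fell, Sema4a (-1.82 ± 0.33), which encodes a semaphorin that binds neuropilin-1. Among the members that did not pass were Lag3 (0.17 ± 0.14) and Tgfb1 (-0.11 ± 0.20).

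Transcripts of extracellular matrix proteins were among the rises. Matn2, which encodes the matrix adaptor matrilin-2, had 267, 297 and 281 on the Treg arrays, against 7.83, 15.1 and 9.29 on the Tconv arrays, the largest difference after Il2ra (4.77 ± 0.46; its second probe set gave 1.14). The Tconv values lie deep in the background range, so the fold is approximate. Prg4, which encodes lubricin, the proteoglycan that lubricates joints, had 366, 399.8 and 359.7 in Treg, against 45.4, 46.5 and 43.4 in Tconv (3.06 ± 0.20, adjusted p = 3.66e-08). The spread between arrays was small in both groups. Adamts6, a secreted metalloprotease, was the 1 called gene of 34 tested ADAM and matrix metalloproteases (1.64 ± 0.29; 3 with the block).

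Dst, dystonin, a giant linker between cytoskeletal filaments, had 295, 429 and 492 in Treg, against 31.7, 51.5 and 51.9 in Tconv, although its 3 other probe sets gave only 0.21 to 0.59. Neb, nebulin, the ruler protein of muscle thin filaments, had 131, 67.1 and 119.6 in Treg, against 16, 16.7 and 19 in Tconv. Kif13a, a kinesin that carries vesicles, had 353, 509.8 and 308 in Treg, against 55.3, 63.8 and 70.7 in Tconv. Of 66 tested myosins and kinesins 4 rose, with Myo3b (2.00 ± 0.20), Kif5c (1.21 ± 0.19) and Myo1c (0.88 ± 0.21) the others. The 2 that fell were Myo10 (-1.39 ± 0.22) and Kif23 (-1.16 ± 0.25, other probe sets -0.15 and 0.094). With the replicate block 7 rose and 5 fell.

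The largest rise among the nuclear factors named here was that of Foxp3. Foxp3 rose 20.6-fold and was the only called gene of 25 tested forkhead factors (1 fall beside it with the block). Of the Ikaros family 3 of 5 rose. Ikzf4, Eos, had 2987, 2824 and 1531 in Treg, against 437, 397 and 374 in Tconv, and its other probe sets gave -0.022 and 2.48. Ikzf2, Helios, had 5929, 5866 and 6904 in Treg, against 766, 1669 and 2297 in Tconv. Ikzf3, Aiolos, rose by 0.90 ± 0.17. Ikzf1, Ikaros itself, missed the threshold (-0.76 ± 0.22, adjusted p = 0.0609, and 0.00187 with the replicate block). Plagl1, an imprinted zinc finger gene, had 2313, 2637 and 2028 in Treg, against 126, 366 and 305 in Tconv; its other probe sets gave 0.34 and 0.53. Ahr, the receptor for dietary and microbial aryl hydrocarbons, had 1113, 1228 and 1661 in Treg, against 106, 209 and 161 in Tconv, while its second probe set gave -0.091. Irf4 (1.87 ± 0.26, second probe set 0.15), Prdm1 (1.47 ± 0.15), Rora (1.35 ± 0.26), Maf (1.13 ± 0.29), Bhlhe40 (1.32 ± 0.26) and Irf8 (1.18 ± 0.23) rose too. They are factors of effector T cell differentiation, except that Irf8 is best known from myeloid and B cells. Klf9 (1.46 ± 0.28) and Klf10 (0.92 ± 0.22) were the called members of 15 Kruppel-like factors (3 rises and 1 fall with the block, 1 rise without Treg replicate 1 or Tconv replicate 2 or 3).

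Socs2, an inhibitor of cytokine receptor signals, had 684, 444 and 493 in Treg, against 25.6, 27.2 and 31.7 in Tconv, and Cish, of the same family and a target of STAT5, had 1177, 870.5 and 917 in Treg, against 237, 266 and 326 in Tconv. They were the 2 called genes of 8 tested SOCS proteins. Rgs1, which shortens chemokine receptor signals, had 1158, 879 and 727 in Treg, against 71.5, 106 and 141 in Tconv, and Rgs16 rose by 1.93 ± 0.40; they were the 2 called of 14 regulators of G protein signalling, with 1 fall under the block. Dusp4, which dephosphorylates MAP kinases, had 678, 542 and 521 in Treg, against 73.2, 61.2 and 86.8 in Tconv, and Dusp1 rose by 1.54 ± 0.22; they were the 2 called of 18 dual-specificity phosphatases, with 1 fall under the block. Of 29 tested protein tyrosine phosphatases 5 rose and none fell. They were led by Ptprs (1.51 ± 0.21, other probe sets -0.34 to 0.17) and Ptpn13 (1.23 ± 0.24, second probe set 0.056). Leaving out any 1 lymph node array brought that count to 2 or 3.

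The largest fall belonged to Pde3b, the phosphodiesterase that breaks down cyclic AMP and that Foxp3 is known to repress. It had 152, 239 and 257 on the Treg arrays, against 3035, 3255 and 3152 on the Tconv arrays, a 14.9-fold difference with adjusted p = 2.16e-08. Around it, 4 of 27 tested genes of the cyclic AMP pathway rose and 3 fell, and their median was 0.03. The prostaglandin E2 receptors Ptger2 (2.37 ± 0.36) and Ptger4 (1.21 ± 0.12), both of which raise cyclic AMP, rose, as did Prkar2b (0.92 ± 0.23), a regulatory subunit of protein kinase A that was dim in both groups, and Pde8a (0.55 ± 0.14). Vipr1, the receptor for vasoactive intestinal peptide, which also raises cyclic AMP, had 55.6, 51.5 and 61.9 in Treg, against 467, 359.6 and 404 in Tconv, and the cyclase gene Adcy6 fell too (-1.37 ± 0.24). With the replicate block 7 rose and 4 fell; without Treg replicate 1, Tconv replicate 2 or Tconv replicate 3 only 2 rose.

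Il21, the cytokine by which follicular helper cells drive B cells, had 37.9, 54.9 and 59.9 in Treg, against 192, 898 and 424 in Tconv, and its Tconv arrays differed more than 4-fold among themselves. Pou2af1, a coactivator known from B cells and follicular helper cells, varied alike with 64.8, 147 and 91.7 in Treg, against 255, 590.1 and 428 in Tconv; in both genes replicate 2 was the highest Tconv array and replicate 1 the lowest. Il1rl2, the receptor for interleukin-36, had 31.2, 46.3 and 36.4 in Treg, against 377, 238 and 206 in Tconv, but its second probe set gave 0.027. Klrd1, the CD94 chain of a receptor of NK cells and some T cells, had 52.5, 57.9 and 75.4 in Treg, against 566, 377 and 266 in Tconv. Fasl (-0.68 ± 0.18) and Eomes (-1.14 ± 0.29) fell by less.

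Less familiar genes filled much of the rest. Lypd6b, a small protein held to the membrane by a lipid anchor, had 28.9, 34.2 and 39.5 in Treg, against 444, 252 and 431 in Tconv, and was the only called gene of 15 tested Ly6 and Lypd proteins. Dapl1, known from epithelial cells and resting T cells, had 78.3, 59.9 and 27.5 in Treg, against 752, 535 and 272 in Tconv; within each group it was highest on replicate 1 and lowest on replicate 3. Tdrp had 158, 157 and 135 in Treg, against 1446, 909 and 867 in Tconv. Arhgap29 had 57.2, 56.9 and 54.7 in Treg, against 480.2, 351 and 292 in Tconv. App, the precursor of the amyloid peptide, had 133, 109.8 and 124 in Treg, against 649.8, 711 and 858 in Tconv, and its 3 other probe sets gave -1.11 to 0.13. Epas1, the hypoxia factor HIF-2 alpha, had 60.3, 88.5 and 96.3 in Treg, against 658, 453 and 336 in Tconv, and its second probe set gave -0.35. The groups did not overlap in any of these, which was a condition of their choice. Sgk1, a kinase of salt balance that also acts in helper T cells, had 184, 136 and 370.2 in Treg, against 1122, 998 and 1123 in Tconv. Tmie, known from the hair cells of the inner ear, had 128, 208 and 147 in Treg, against 687, 797 and 984 in Tconv. Atp8b4, a lipid flippase (-2.75 ± 0.49), Hs3st3b1, which modifies heparan sulfate (-2.80 ± 0.32, other probe sets -0.18 to -0.039), and Lrrc75b (-2.73 ± 0.22) fell too. Afp, the fetal albumin gene, was low on 2 Treg arrays and variable (85.5, 30.6 and 55.9 in Treg, against 318, 184 and 199.6 in Tconv).

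All 30 of the largest rises and 22 of the 25 largest falls kept their call with each of the 6 lymph node arrays left out in turn. The exceptions were Afp, H2-Q2 and Pou2af1. Over all called genes, 309 of 554 did so, 246 of them rises and 63 falls. Among genes named in the text, Icos, Mapkapk2, Oas1a, Plxnc1, Satb1 and St3gal1 lost their call whichever array was left out, as did Chn2 and Sox4.

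Of 28 tested genes of the Treg core 26 rose, with a median of 2.32; they included Tnfrsf4 (2.59 ± 0.26), the receptor OX40, and Tnfrsf18 (1.43 ± 0.21), the receptor GITR. With the replicate block all 28 did. Of 31 tested targets and parts of interleukin-2 and STAT5 signalling 20 rose and none fell (1 fell with the block). Il2ra, the sort marker, is among the 20. The gate fixed its rise in advance, so the count is not independent of the sort. Il2rb, the receptor's beta chain, had 472, 515 and 389 in Treg, against 76.8, 75.6 and 78.6 in Tconv, and Hopx (2.30 ± 0.20), Ptger2 and Cish were others. Memory, residence and migration genes rose in 13 of 35 cases, with a median of 0.68, among them S100a6 (1.42 ± 0.34), which kept its call in only 1 of the 6 fits with an array left out. Markers of quiescence and homing to lymphoid tissue fell in 8 of 36 cases, with a median of -0.47, and none rose (11 falls and 1 rise with the block). Satb1 (-1.29 ± 0.34), a chromatin organiser that Foxp3 represses, Lef1 (-1.32 ± 0.21), Igfbp4 (-1.98 ± 0.41), Tgfbr3 (-2.02 ± 0.29) and Rflnb (-2.04 ± 0.23) were among them. The receptors that keep resting cells in circulation did not pass: Il7r differed by -0.55 ± 0.23, Ccr7 by -0.70 ± 0.36 and S1pr1 by -0.63 ± 0.19, the last with adjusted p = 0.0714, and 0.00372 with the replicate block.

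Of 37 tested members of the T cell receptor signalling machinery, with a median of -0.14, 1 rose and 3 fell, which is 10.8%, against the background of 4.32%. Themis, an adaptor that tunes receptor signals during thymic selection, had 238, 291 and 262 in Treg, against 995, 1037 and 1027 in Tconv, and Pag1 (-0.83 ± 0.21) and the kinase gene Tec (-0.72 ± 0.16) fell less. Ubash3b, which restrains receptor signals, rose (0.88 ± 0.24) and kept its call only without Treg replicate 3. Of 33 genes of the early response to antigen 8 rose and none fell, with a median of 0.42; beside Dusp4, Irf4 and Dusp1 they included Tnfrsf9 (1.52 ± 0.26), the receptor 4-1BB, and Nr4a3 (1.21 ± 0.32, other probe sets -0.11 and -0.085). The block raised that count to 13, and it was 4 without Tconv replicate 1 and 5 without Treg replicate 1 or 3. Egr1 (-0.016 ± 0.19) and Nr4a1 (0.62 ± 0.20) did not pass. NF-kB targets rose in 5 of 21 cases (9 with the block, 3 without Treg replicate 2 or 3 or Tconv replicate 1 or 2). Among them were Icam1 (1.11 ± 0.23), the survival gene Bcl2l1 (0.99 ± 0.20, other probe sets -0.018 to 0.032) and the inhibitor Tnfaip3 (0.80 ± 0.19, second probe set -0.21).

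Programmes of helper subsets moved in part. Of 15 tested genes of type 17 helper cells 5 rose, Ahr, Ccr6, Rora and Maf among them with the drug exporter Abcb1a (1.77 ± 0.30), and none fell. Follicular helper genes split, with 4 of 23 higher and 3 lower. P2rx7 (1.33 ± 0.28, other probe sets -0.13 and 1.84) and Izumo1r (1.32 ± 0.26), the folate receptor 4, were among the higher ones. Type 1 helper genes split as well, with Nkg7 (0.96 ± 0.21), Cxcr3 (0.84 ± 0.22) and Il12rb1 (0.77 ± 0.16) higher of 19, and Klrd1, Eomes and Fasl lower. Leaving out 1 array gave 2 to 4 rises and 1 to 4 falls among follicular helper genes, with 2 rises without Tconv replicate 1 and 1 fall without Tconv replicate 2. It gave 1 to 3 rises and 1 or 2 falls among type 1 genes, with 1 rise without Treg replicate 2 or Tconv replicate 1 and 1 fall without Treg replicate 1 or 3 or Tconv replicate 2. Of 15 type 2 genes Nfil3 (1.28 ± 0.19) and Il10 (1.26 ± 0.16) rose. Tbx21 (0.55 ± 0.28), Gata3 (0.40 ± 0.22) and Bcl6 (-0.36 ± 0.32), the lineage factors of type 1, type 2 and follicular cells, did not pass; Tbx21, which was dim in both groups, did with the replicate block (adjusted p = 0.0361).

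Of 41 tested cell division genes, with a median of 0.36, 1 rose. Ccne2, a cyclin of the start of DNA synthesis, was the one (1.33 ± 0.32; 2 members passed with the block or without Tconv replicate 2, 1 without Treg replicate 3 and none without another array). Of the 41, 9 had an unadjusted p under 0.05 from limma, against 1444 of all 12821 genes. In 12 all Treg arrays lay above all Tconv arrays and in 0 below, beside 16.5% of all genes without overlap in either direction. Mki67 had 369, 448 and 412 in Treg, against 95.3, 373 and 179 in Tconv, and its arrays overlapped. Of metabolic lists, 3 of 18 glycolysis genes rose: the glucose transporter Slc2a3 (1.48 ± 0.15), Hk2 (1.18 ± 0.25), which traps glucose in the cell, and Eno3 (1.38 ± 0.31), the muscle enolase (with the block 4 rose and 1 fell). Ldha (-0.14 ± 0.11) did not. Of 37 genes of fatty acid and sterol metabolism, Fabp5 (2.04 ± 0.29), a carrier of fatty acids, and Dgat2 (1.18 ± 0.30, second probe set -0.13), which makes triglyceride, rose, and Elovl7 (-0.87 ± 0.14) fell; 1 rise was left with any array but Tconv replicate 2 left out.

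**Figure D3:**
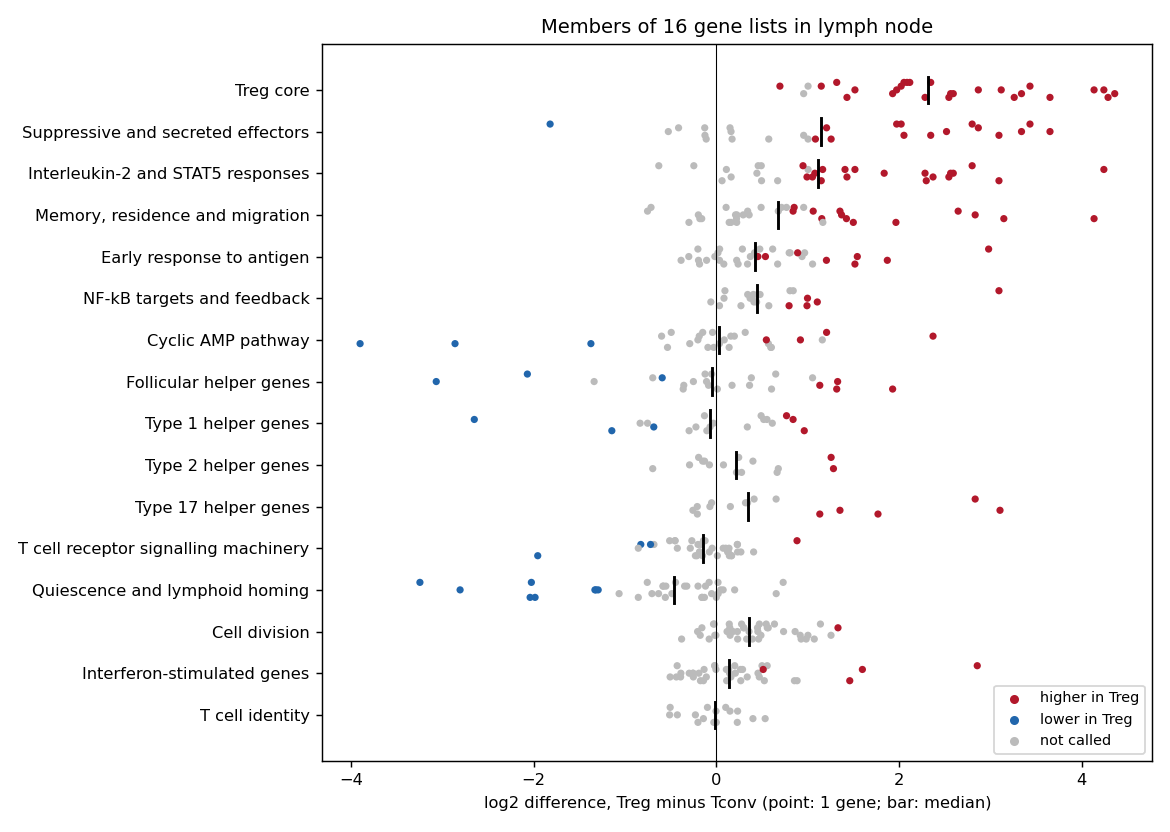
Each point is 1 tested gene of the list named at the left, Il2ra left out; the x axis is its log2 difference, Treg minus Tconv, the black bar the median of the list, and colours mark called rises and falls. The Treg core lies to the right with a median of 2.32, quiescence and homing genes to the left with -0.47, and T cell identity at -0.02.

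Interferon-inducible GTPases, large proteins that attack the membranes around microbes in a cell, rose in 4 of 12 tested cases, with a median of 0.71. Gbp3 had 3426, 3999 and 3136 on the Treg arrays, against 443, 565 and 452 on the Tconv arrays. Gbp2b had 334, 431 and 465 in Treg, against 64.3, 86.1 and 98.2 in Tconv. Gbp2 had 1675, 1478 and 1832 in Treg, against 495, 626 and 527 in Tconv. Iigp1 of another branch rose too (1.46 ± 0.32) and kept its call in 3 of the 6 fits with an array left out. These 4 genes stood apart between the groups, as 553 of the 554 called genes did. Gbp6 (0.88 ± 0.34) and Gbp7 (0.87 ± 0.39) missed the threshold and passed with the block (adjusted p = 0.00128 and 0.00483), while Irgm1 differed by -0.0039 ± 0.20. The wider list of interferon-stimulated genes, with a median of 0.14, held 4 rises of 39, Oas1a (0.51 ± 0.14) the other one, and 2 or 3 with an array left out. Gbp genes resemble each other closely, so probes may read more than 1 of them, and their separate values are uncertain.

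The 3 called Gbp genes are neighbours on chromosome 3 and read in the same direction. Their 250 bases upstream of the start of transcription are shown because the 3 genes rose together; sequences are RefSeq's on GRCm38.p6, plus strand. Capitals mark the letters TTTC, any 2 bases and TTTC again, the core of an interferon response element, searched on both strands; in Gbp3 2 matches overlap, and a second RefSeq window of Gbp3 holds none.
Gbp3, chr3:142559794-142560043: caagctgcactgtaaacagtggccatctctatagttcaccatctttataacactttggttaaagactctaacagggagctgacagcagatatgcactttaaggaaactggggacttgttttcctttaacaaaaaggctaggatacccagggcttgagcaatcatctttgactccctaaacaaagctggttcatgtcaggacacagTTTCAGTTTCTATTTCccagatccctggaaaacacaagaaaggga
Gbp2b, chr3:142594597-142594846: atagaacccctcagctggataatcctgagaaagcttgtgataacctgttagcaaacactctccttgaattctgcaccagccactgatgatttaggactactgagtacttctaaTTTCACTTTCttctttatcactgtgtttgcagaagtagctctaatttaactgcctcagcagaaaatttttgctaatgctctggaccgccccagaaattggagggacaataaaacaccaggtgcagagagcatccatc
Gbp2, chr3:142620413-142620662: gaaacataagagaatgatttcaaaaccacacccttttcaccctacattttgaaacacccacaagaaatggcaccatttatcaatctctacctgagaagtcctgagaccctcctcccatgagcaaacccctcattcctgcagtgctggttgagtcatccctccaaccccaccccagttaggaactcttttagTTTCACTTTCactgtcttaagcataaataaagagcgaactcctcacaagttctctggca
The motif occurs in 2.98% of all 32851 such windows and in 2.64% of the 13141 windows of tested genes. It is in 3.53% of the 397 windows of genes that rose and in 1.88% of the 160 of genes that fell. Letters that could bind STAT5 were searched for in the same way, as TTCNNNGAA. They are in 7.02% of all windows, 5.93% of those of tested genes, 8.06% of those of rises and 5.63% of those of falls. The AP-1 letters TGANTCA are in 6.75% of all windows, 5% of those of tested genes, 8.31% of those of rises and 3.75% of those of falls. For the forkhead letters TGTTTAC the shares in the same order are 3.17%, 2.42%, 3.53% and 1.88%. A window may hold several of these motifs, and a gene several windows. One of the RefSeq starts of Foxp3 has such a match, shown because Foxp3 defines the cells and interleukin-2 acts through STAT5.
Foxp3, chrX:7580233-7580482, plus strand: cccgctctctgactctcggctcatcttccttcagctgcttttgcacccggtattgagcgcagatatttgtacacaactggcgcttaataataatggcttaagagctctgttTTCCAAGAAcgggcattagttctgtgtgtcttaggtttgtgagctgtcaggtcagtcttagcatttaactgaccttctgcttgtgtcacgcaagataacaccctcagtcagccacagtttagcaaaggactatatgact
The window of Cish holds none. These are matches of letters and were not tested as binding sites.

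A second cluster of defence genes rose on chromosome 13, where Naip5, Naip6 and Naip2 lie side by side. The NAIP proteins sense bacterial flagellin and secretion needles inside the cell. Naip5 had 477, 702 and 605 in Treg, against 45.8, 74.4 and 123 in Tconv, and Naip6 (0.92 ± 0.17) and Naip2 (1.05 ± 0.25, dim in both groups) rose less; they too are near copies, and their separate values are uncertain. The caspase genes Casp1 (0.86 ± 0.21) and Casp4 (1.24 ± 0.25), which act in the same kind of alarm, lie next to each other on chromosome 9 and were the called genes among 26 TRAF, BIRC and death-domain adaptors, with 1 left without Treg replicate 1 or 2 or Tconv replicate 1 or 3.

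Of 407 genes that rose and have a next tested gene on the chromosome, 43 had a next gene that also rose (10.6%), against the 3.21% of all genes that rose; among falls it was 7 of 142 (4.93%, against 1.11%). In 43 runs of adjacent genes called in the same direction lay 93 genes. Beside the Gbp and Naip clusters, runs of 3 or more held Mapkapk3, Cish and Hemk1 on chromosome 9, Pnp, Ang and Rnase4 on chromosome 14, Igf1r, Pgpep1l, Fam169b and Arrdc4 on chromosome 7, and, among falls, Hs3st3b1, Cox10 and 2810001G20Rik on chromosome 11. Pairs included Ctla4 and Icos, Tnfrsf4 and Tnfrsf18, Gpr83 and Izumo1r, and Il10 and Mapkapk2. The neighbours named here were chosen after their values were seen. Igf1r, the receptor for insulin-like growth factor 1, stood at 888 ± 173 in Treg and 284 ± 12.2 in Tconv (SD, n = 3 arrays each), and Rnase4 at 228 ± 17.1 in Treg and 70.7 ± 22.4 in Tconv. Some overlap or share a transcription unit, as Ang and Rnase4 do, so their probe sets need not be independent.

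Among the TNF receptors, many of which costimulate T cells, 5 of 22 tested members rose and none fell. Tnfrsf4, OX40, had 2539, 2036 and 1528 in Treg, against 344, 334 and 313 in Tconv, and Tnfrsf1b, a receptor for TNF, rose by 1.89 ± 0.26 (second probe set 0.059). Of 13 TNF ligands Lta (1.16 ± 0.26) and Tnfsf11 (1.00 ± 0.25), RANKL, rose beside the fall of Fasl. No rise was left without Treg replicate 1 or Tconv replicate 2 and 1 without Treg replicate 2 or Tconv replicate 1, and the fall was left only without Tconv replicate 3. In the CD28 and B7 families 4 of 14 rose, and the ligands were among them: Cd86 had 354, 299 and 322 in Treg, against 82.9, 61.9 and 48.2 in Tconv, and Pdcd1lg2, PD-L2, rose by 1.09 ± 0.23. Icos passed narrowly (0.70 ± 0.19), and 2 of the 4 calls were left without Treg replicate 1 or 2 or Tconv replicate 1. Of 30 interleukin receptor chains 5 rose, the sort marker Il2ra included. Il10ra (1.52 ± 0.29, other probe sets -0.17 and 0.29) was another, and Il1rl2 fell (2 falls with the block). Chemokine receptors rose in 4 of 19 cases, Ccr2 (1.97 ± 0.33) and Ccrl2 (1.36 ± 0.21) beside Ccr6 and Cxcr3. Tetraspanins Cd81 (1.91 ± 0.23) and Tspan3 (0.96 ± 0.25), and Slamf1 (1.54 ± 0.24), also rose. With the block 5 tetraspanins rose and 1 fell, and 2 of the SLAM family rose; 1 tetraspanin was left without Treg replicate 2 or 3 or Tconv replicate 2 or 3.

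Of 79 tested G protein-coupled receptors 7 rose and 1, Vipr1, fell (10 and 5 with the block). Gpr34, a receptor for lysophosphatidylserine best known from microglia, had 327, 235 and 185 in Treg, against 62.3, 33.5 and 35.8 in Tconv. In the TGF-beta family 3 of 39 rose and 2 fell, all of them receptors. Tgfbr1 (1.76 ± 0.25, other probe sets 0.0062 and 0.14), Bmpr2 (1.72 ± 0.31, other probe sets -0.0044 and 0.44) and Acvr2a (0.83 ± 0.17, second probe set 0.22) rose. The co-receptor Tgfbr3 (-2.02 ± 0.29) and Acvr1b (-0.68 ± 0.18, second probe set 0.080) fell. Only 1 fall was left without Treg replicate 2 or 3 or Tconv replicate 1 or 3. Among integrins Itgb3 was the 1 that fell (632, 619 and 624 in Treg, against 1918, 1769 and 1903 in Tconv), beside 3 rises of 22. Its second probe set gave -0.24. In this family 2 fell with the block and without Treg replicate 3 or Tconv replicate 1. Of 26 semaphorins, plexins and neuropilins, the receptors Nrp1, Plxnd1 (0.64 ± 0.18) and Plxnc1 (0.60 ± 0.17) rose, and the ligands Sema4a and Sema4f (-1.71 ± 0.28) fell. Plxnd1 lost its call with the replicate block (adjusted p = 0.0584), and with any lymph node array other than Treg replicate 2 left out only 1 of the 3 rises was left.

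Inside the cell, enzymes of lipid and kinase signalling held rises. Of 61 phosphoinositide and diacylglycerol enzymes 5 rose, with the phosphatases Mtmr7 (1.90 ± 0.24) and Inpp5f (1.34 ± 0.24) and the phospholipase Plcb4 (1.75 ± 0.19) ahead, and the block gave 8 rises and 3 falls. MAP kinase genes rose in 4 of 31 cases, led by Map3k8 (1.79 ± 0.27) and Mapkapk3 (1.19 ± 0.22); 2 were left without any 1 of the Treg arrays or without Tconv replicate 1 or 2. Rasgrp2, which activates Rap1 and adhesion, was the 1 call among 30 Ras and Rap factors (-1.24 ± 0.19; 1 rise and 2 falls with the block).

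**Figure D4:**
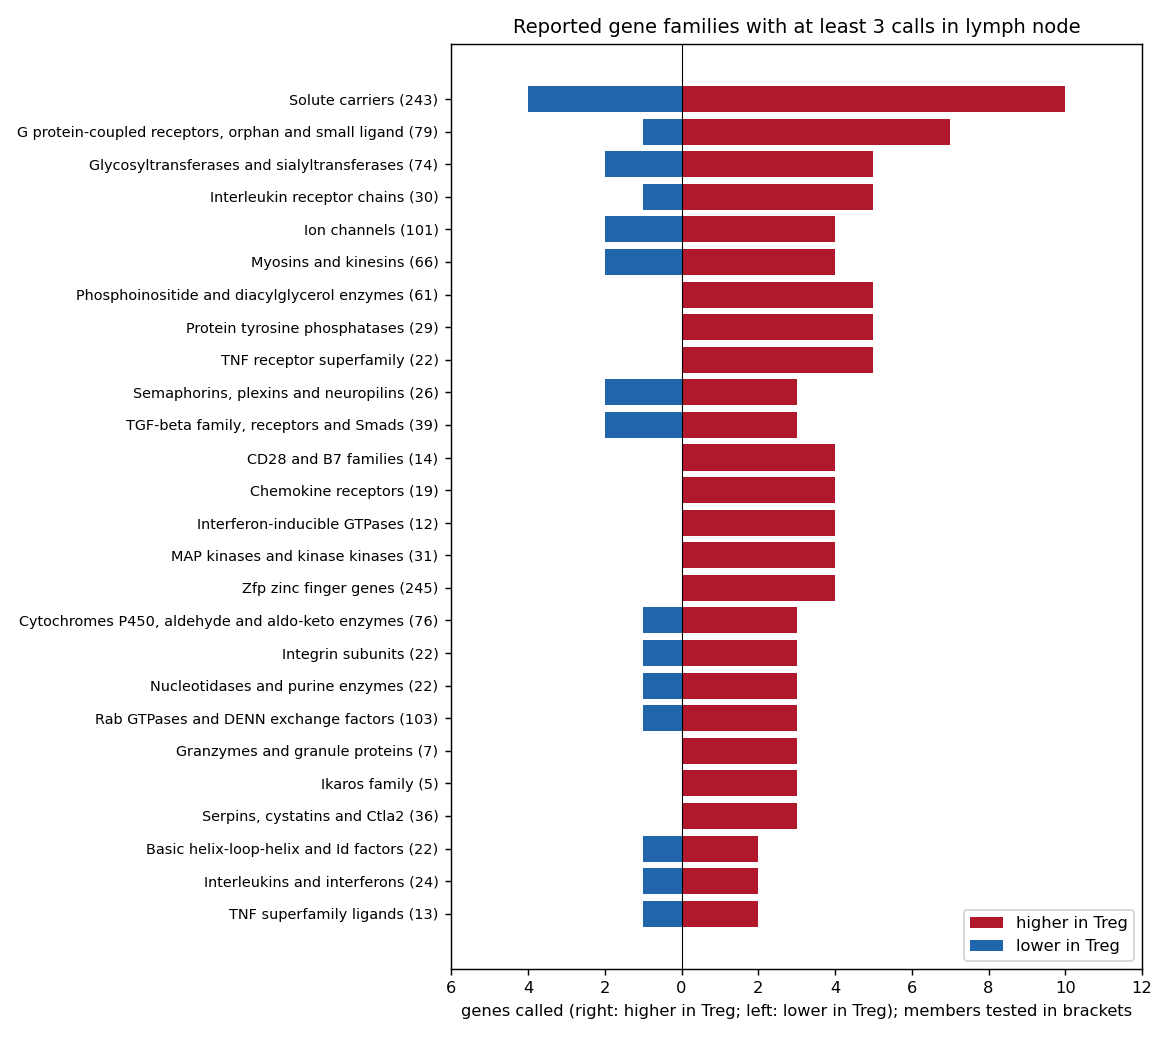
Genes called higher (right, red) and lower (left, blue) in lymph node Treg in each reported gene family with at least 3 calls, with the number of members tested in brackets. Solute carriers hold 10 rises and 4 falls of 243, and TNF receptors 5 rises of 22.

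Of 243 solute carriers 10 rose and 4 fell (17 and 7 with the block), so that 5.76% were called, against the background of 4.32%; without Treg replicate 1 or 2 or Tconv replicate 3 only 2 falls were left. The sodium and proton exchangers Slc9a7 (1.69 ± 0.27) and Slc9b2 (1.69 ± 0.23) and the nucleotide sugar carrier Slc35d1 (1.66 ± 0.17) rose. Slc16a5 (-1.74 ± 0.24), the phosphate carrier Slc20a1 (-0.99 ± 0.17), the potassium chloride carrier Slc12a7 (-0.83 ± 0.22) and the zinc carrier Slc30a4 (-0.77 ± 0.19) fell. Of 101 ion channel genes and their sensors 4 rose, Kcnq5 (1.86 ± 0.36), Kcnk6 (1.51 ± 0.19), the ATP-gated channel P2rx7 and the calcium store sensor Stim2 (0.67 ± 0.14), and Cnga1 (-1.52 ± 0.22) and Kcnmb4 (-0.51 ± 0.14) fell, of which 1 fall was left with any array but Tconv replicate 2 left out. Glycosyltransferases rose in 5 of 74 cases and fell in 2: Gcnt1, which branches O-glycans, had 469, 107 and 127 in Treg, against 28.2, 44.7 and 32.7 in Tconv, and St6galnac3 (1.68 ± 0.27) and Mgat5 (1.01 ± 0.19) rose, while St8sia1 (-1.04 ± 0.27) and St3gal1 (-0.60 ± 0.16) fell. No fall was left without Treg replicate 1 or 3 or any 1 of the Tconv arrays, and 1 without Treg replicate 2. Gsta4 and Gsto1, glutathione transferases, rose by 2.39 ± 0.23 and 1.70 ± 0.24, and Cyp2s1 fell (-1.11 ± 0.13). In purine metabolism Ampd1 fell (-1.80 ± 0.27) beside the rises of Entpd1, Nt5e and Pnp (0.63 ± 0.16).

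Of 7 tested granzymes and granule proteins 3 rose, Srgn, the proteoglycan that packs granules (0.52 ± 0.14), beside Gzmb and Nkg7; 1 fell with the block. Without Treg replicate 2 or Tconv replicate 1 only 1 rise was left. Of 36 serpins, cystatins and Ctla2 genes 3 rose (5 with the block): the cathepsin inhibitors Ctla2a (1.71 ± 0.35) and Cst7 (1.41 ± 0.24), and Ctla2b (1.15 ± 0.27), which was dim in both groups and is a near copy of Ctla2a. None of 15 cathepsins and legumain passed limma's test (2 at an unadjusted p under 0.05, 2 with the block). Of 9 tested targets and partners of Ahr, 3 rose, with Scin (1.25 ± 0.31), which severs actin, and Arnt2 (0.82 ± 0.22) beside Ahr itself, and the antioxidant factor Nfe2l2 fell (-1.01 ± 0.27). Without Treg replicate 2 or 3 or Tconv replicate 1 only 1 rise was left, and the fall was left only without Tconv replicate 3.

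Counts in housekeeping families and in Zfp genes are given beside the 4.32% called over all genes, and no difference from that share was tested. None of 47 cytosolic ribosomal protein genes (median -0.12) and none of 47 proteasome genes (median 0.03) passed limma's test, with 1 each at an unadjusted p under 0.05 and none with the block. Of 87 genes of NADH dehydrogenase and cytochrome oxidase, Cox10, an assembly factor, was the only call (-0.50 ± 0.13), kept only without Treg replicate 1. Of 245 genes named Zfp 4 rose, Zfp937 (1.21 ± 0.18) by the most; with the block 7 rose and 3 fell, and 1 to 3 rises were left with an array left out, 1 without Treg replicate 1 or Tconv replicate 3. Over all 75 families drawn by symbol, 36 held rises alone, 5 falls alone, 21 both and 13 no call.

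Genes with provisional or structural names numbered 1486, of which 37 rose and 17 fell (63 and 38 with the block; 8 to 14 falls with 1 array left out, the fewest without Tconv replicate 1). Of them 3.63% were called, against the background of 4.32%. Tmem158 had 735, 705 and 562 in Treg, against 70.3, 144 and 134 in Tconv, while its other probe sets gave -0.17 and 0.024. Gm31718 had 312, 855 and 556 in Treg, against 67.7, 157 and 101 in Tconv. The groups stayed apart in both, as in 553 of the 554 called genes. Sh3bgrl2 (2.29 ± 0.25), 1110032F04Rik (2.28 ± 0.47, second probe set -0.22), E030024N20Rik (1.84 ± 0.26), Gm4951 (1.62 ± 0.23) and 4930431P03Rik (1.52 ± 0.26) rose as well. Outside that family Tlcd5, a membrane protein with a TLC domain, had 406, 451 and 213 in Treg, against 46, 58.8 and 49.9 in Tconv, and Niban1 had 1032, 898 and 1020.0 in Treg, against 148, 153 and 208 in Tconv. Usp27x, a ubiquitin protease gene, rose by 2.42 ± 0.22, with -0.22 on its second probe set, and Marchf3, a membrane ubiquitin ligase, by 2.10 ± 0.30. Of the falls, A530021J07Rik had 6.15, 6.23 and 5.34 in Treg, against 123, 61.5 and 42.3 in Tconv, and its second probe set moved as far (-3.46). All its Treg values lie far below the filter level, and Tconv replicates 2 and 3 lie below it too. Then came 2810001G20Rik (-1.96 ± 0.25), Fam78a (-1.36 ± 0.31) and Klhdc1 (-1.24 ± 0.28).

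MHC class I genes gave 1 call each way. H2-Q2 had 18.7, 29.6 and 27.2 in Treg, against 35.4, 277 and 239 in Tconv, so Tconv replicate 1 lay close to the Treg arrays, and H2-Q5 rose by 0.76 ± 0.15. These genes are near copies, and the call of H2-Q2 (adjusted p = 0.0438) was kept in 1 of the 6 fits with an array left out. Trgv1, a segment of the gamma chain of the T cell receptor, rose by 1.47 ± 0.34 and lost its call without Treg replicate 1 or 3 or Tconv replicate 1.

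The thymus and fat arrays were used to see which lymph node differences were also called there. In thymus, 224 of the 412 lymph node rises (54.4%, and 54.5% of the 411 thymus rises) and 76 of the 142 falls (53.5%, and 33.5% of the 227 thymus falls) were called in the same direction, with 1 gene opposite. In fat it was 178 rises (43.2%, and 22.0% of the 810 fat rises) and 69 falls (48.6%, and 10.4% of the 666 fat falls), with 24 and 7 opposite. The tissues share no arrays but share 1 estimate of spread per gene. Thymus mice differed in strain and age, which cannot be told apart from tissue. The fat sort used 1 more marker, and fat mice differed in pool size, age range and stated sex, which cannot be told apart from tissue either. Median intensity was 76.9 to 82.2 on fat arrays and 57.9 to 63.0 on lymph node arrays. With arrays centred on their median, 588 genes differed from fat in place of 622, and with quantile normalisation 654. The 2 tests of differences below also share the lymph node arrays.

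Against thymus, the Treg effect differed in 39 genes (0.304%), and in 136 with the block. Over all genes the signed effect was higher in lymph node in 19 and lower in 20. Of the genes called in lymph node, 16 rises were larger and 6 falls deeper there, and 3 rises were larger in thymus. Those genes were picked by a call on the same lymph node arrays, which favours differences of the sign of that call. Naip5 differed by 2.76 ± 0.42 (log2, lymph node minus thymus, ± SE; adjusted p = 0.00403), with 0.22 in thymus. Prg4 differed by 2.51 ± 0.28 and Gsta4 by 2.20 ± 0.32. Irf4, which rose by 1.87 in lymph node, had -0.21 in thymus, a difference of 2.09 ± 0.36, and Hopx (2.03 ± 0.28), Gbp2b (1.96 ± 0.29) and Tlcd5 (1.86 ± 0.35) followed. Mtmr7 (2.03 ± 0.34), Myo3b (1.50 ± 0.29) and Cxcl2 (1.97 ± 0.31), a chemokine dim in both lymph node groups, completed the rises named. Eomes went opposite ways, at -1.14 in lymph node and 1.83 in thymus (difference -2.97 ± 0.41). A530021J07Rik (-3.36 ± 0.38), Dapl1 (-2.99 ± 0.60) and Lrrc75b (-2.19 ± 0.31) fell in lymph node and differed by -0.18, -0.25 and -0.54 in thymus, values that did not pass there. Tec (-1.13 ± 0.23) and the dim gene Lancl3 (-1.28 ± 0.25) were the others. The 3 rises that thymus exceeded were S100a6 (1.42 in lymph node and 5.01 in thymus, difference -3.59 ± 0.48), AW112010 (-1.93 ± 0.27) and Arhgap20 (-1.43 ± 0.28).

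Against fat the effect differed in 622 genes (4.85%), and in 1416 with the block. Over all genes the signed effect was higher in lymph node in 345 and lower in 277. Of the lymph node rises 121 stood above the signed effect in fat, and 35 falls stood below it, some with the opposite sign in fat. Another 20 rises and 9 falls were exceeded in fat. Here too the choice by the lymph node call favours differences of the sign of that call. Itgae rose by 4.14 in lymph node and differed by 0.47 in fat (difference 3.66 ± 0.31, adjusted p = 1.13e-06). Socs2 stood at 4.24 and -0.37 (difference 4.61 ± 0.36), Matn2 at 4.77 and 0.88 (3.89 ± 0.65), and Ahr at 3.11 and -0.32 (3.43 ± 0.35). Cxcr3, the receptor of type 1 helper cells, was higher in lymph node Treg (0.84) and far lower in fat Treg than in fat Tconv (-4.01; difference 4.85 ± 0.30). P2rx7 (4.43 ± 0.39), Nkg7 (4.27 ± 0.29), Gm8369 (4.36 ± 0.45), Marchf3 (3.89 ± 0.42) and Ddx43 (3.62 ± 0.39) also had opposite signs in the 2 tissues. Among falls, Epas1 (-2.60 ± 0.55), App (-2.48 ± 0.53) and Arhgap29 (-2.47 ± 0.58) fell in lymph node and did not pass in fat, with 0.066, -0.11 and -0.23. Pde3b fell in both (-3.90 in lymph node, -1.45 in fat) and by more in lymph node (difference -2.45 ± 0.34). Kif23 (-3.15 ± 0.35), Itgb3 (-2.37 ± 0.28), Calcrl (-2.27 ± 0.32) and Chd7 (-2.27 ± 0.34) stood lower in lymph node Treg and above Tconv in fat. In lymph node their other probe sets gave -0.15 and 0.094 for Kif23, -0.24 for Itgb3, -0.054 and 0.064 for Calcrl and -1.30 for Chd7. The effects on Il1rl2 (-1.79 ± 0.41) and A530021J07Rik (-2.71 ± 0.38) were also deeper in lymph node. Of the genes that fat exceeded, Il10 rose by 1.26 in lymph node and 4.80 in fat (difference -3.54 ± 0.23), and Fasl fell in both, with -0.68 in lymph node and -5.11 in fat (difference 4.43 ± 0.25).

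**Figure D5:**
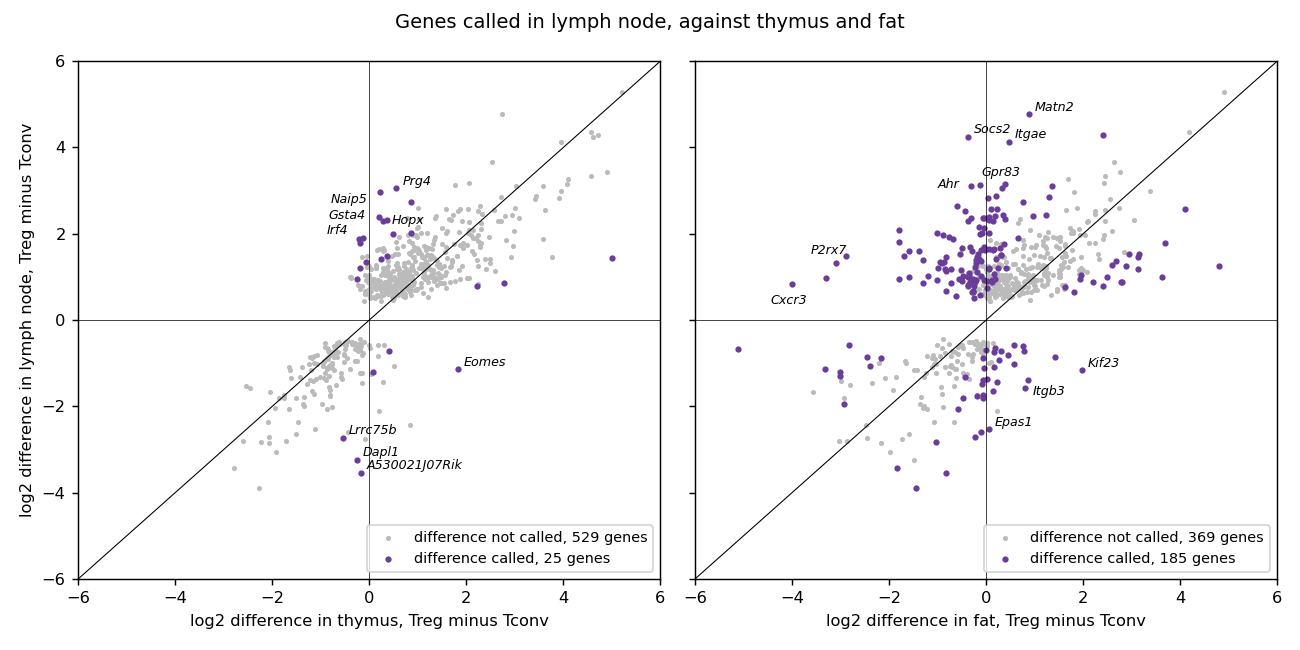
Each point is 1 of the 554 genes called in lymph node; the y axis is its log2 difference in lymph node and the x axis that in thymus (left) or fat (right), both Treg minus Tconv, with the line of equality. Purple marks genes whose difference between tissues was called, 25 against thymus and 185 against fat.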

How the data were processed

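Gene expression was measured on 18 Affymetrix M430v2 arrays, 3 per group, and the 6 lymph node arrays are reported. The deposited table holds linear intensity values that the authors made with RMA, per the submitters' processing notes, which name no version or genome build. The values were taken to log2; no array was renormalised. Of 45101 probe sets 34945 carry 1 gene symbol, 932 several and 9160 none, with 64 controls left out. Genes were matched to RefSeq by gene ID (18031 of 18193 genes), and no symbol was changed by it. Each gene is represented by the probe set with the highest mean over the 18 arrays. The 12821 genes with at least 1 group mean above the median of all values (65.9) were tested with limma 3.58.1 in R 4.3.3 (lmFit and eBayes, 1 coefficient per group over all 18 arrays, 12 residual degrees of freedom), with Benjamini-Hochberg adjustment over all of them. The number of arrays limits the precision.

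Same-numbered Treg and Tconv arrays of a tissue deviated together from their group means (correlations of 0.678, 0.399 and 0.614 in lymph node, 0.562, 0.415 and 0.432 in thymus, 0.505, 0.351 and 0.544 in fat). The numbers come from the sample titles. The block was therefore read as a pairing, by the data and not by a statement in the labels. Alternatives were the replicate block, other filters, probe set choices, normalisations and arrays left out.

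The members, lists and families were chosen with earlier results of these data known, and family patterns were corrected after their members were seen. Named genes are the 30 largest rises and 25 largest falls without overlap, the 4 largest calls each way per list or family (12 among provisional names), the 10 largest each way per difference between tissues among genes whose difference has the sign of their lymph node call, and genes whose probe sets disagree. Uncalled genes given with values and the genes Naip2, Naip6 and Igf1r with their neighbours on the chromosome, AW112010 and the differences of opposite sign were chosen after their values were seen. A few families are not reported here.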

Additional observations from a re-analysis of the deposited data

Results flagged for a closer look

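The effect of being Treg differed between lymph node and another tissue, by limma's test of the difference itself, in the genes given here. All values are log2 differences, lymph node minus the other tissue. The thymus mice were of another strain and age. The fat arrays had larger pools, a further sort marker and higher median intensities. Both comparisons use the lymph node arrays.

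Against thymus, effects were larger in lymph node for Naip5 (2.76), Prg4 (2.51), Gsta4 (2.20), Irf4 (2.09), Mtmr7 (2.03), Hopx (2.03), Cxcl2 (1.97), Gbp2b (1.96), Tlcd5 (1.86) and Myo3b (1.50). They were lower for A530021J07Rik (-3.36), Dapl1 (-2.99), Eomes (-2.97), Lrrc75b (-2.19), Lancl3 (-1.28) and Tec (-1.13). Lymph node rises that thymus exceeded were S100a6 (-3.59), AW112010 (-1.93) and Arhgap20 (-1.43).

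Against fat, the signed effect was higher in lymph node for Cxcr3 (4.85), Socs2 (4.61), P2rx7 (4.43), Gm8369 (4.36), Nkg7 (4.27), Matn2 (3.89), Marchf3 (3.89), Itgae (3.66), Ddx43 (3.62) and Ahr (3.43). Of these, Cxcr3, P2rx7, Gm8369, Nkg7, Marchf3 and Ddx43 were lower in fat Treg than in fat Tconv. The signed effect was lower in lymph node for Kif23 (-3.15), A530021J07Rik (-2.71), Epas1 (-2.60), App (-2.48), Arhgap29 (-2.47), Pde3b (-2.45), Itgb3 (-2.37), Calcrl (-2.27), Chd7 (-2.27) and Il1rl2 (-1.79). Named lymph node rises that fat exceeded were Il10 (-3.54), Dgat2 (-1.95), Cxcl2 (-1.91), Itgav (-1.90), 2900026A02Rik (-1.67), Il10ra (-1.63), Neb (-1.54), Tnfrsf9 (-1.42), Ubash3b (-1.31) and Ccrl2 (-1.31), and named falls that were deeper in fat were Fasl (4.43), Eomes (2.18), Lancl3 (1.80), Satb1 (1.72) and Themis (0.98).

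Probe sets with no gene symbol or with several, called unnamed here, were outside the comparison of genes. In a fit over 27015 probe sets, 118 of the 5032 unnamed ones were higher and 64 lower in lymph node Treg, which is 3.62%, against 3.52% of the named ones.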

How the results depend on the processing

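With the replicate block, which the shared deviation of same-numbered arrays led to, 1028 genes passed in lymph node in place of 554, 136 in place of 39 in the difference from thymus and 1416 in place of 622 in that from fat. With array weights the counts were 2449, 210 and 3667, and with each gene's second brightest probe set, over fewer genes, 166, 2 and 236. With 1 lymph node array left out they were 388 to 464, 25 to 34 and 468 to 587. The count against thymus was lowest, at 25, without Tconv replicate 3. For the changes with the block and the weights the cause was not tested; the weights did not converge fully. Of 4591 checks of 282 values of named genes, 4039 kept direction and side of the threshold, 540 lost the call and 12 turned round. The 12 came with the second probe set: Ahr -0.091, Bmpr2 -0.0044, Calcrl 0.064 in lymph node and 0.00052 against fat, Dgat2 -0.13, Mapk12 -0.071, Nr4a3 -0.085, Nt5e -0.054, Sox4 0.053, Tmem158 -0.17, Tnfaip3 -0.21 and Vav2 -0.042. The cause was not tested. The block took the call from Plxnd1 and Chn2 and changed no other named gene's. Values near background limit the size of large folds.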
